A study of Homo sapiens with 24 samples.

Results

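Translation initiation and elongation factors were the genes whose symbols begin with EIF1 to EIF6, EEF1 or EEF2, taken by symbol from each of the 4 deposited tables with pseudogenes left out. They numbered 70 of the 66659 symbols in the series, and 59 of them had a row in every table. The tables of Hs578T, HCC70, the depletion experiment and the overexpression experiment listed 62, 61, 70 and 66 of them, of which 60, 60, 64 and 64 had a mean of at least 1 and were tested. EIF4EBP1, EIF4EBP2 and EIF4EBP3, whose symbols end like those of pseudogenes, encode proteins and were kept; without them the list holds 67 genes. Methyltransferases of the elongation factors had rows under these symbols in both MDA-MB-231 tables but not in those of the sorted lines.

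RNA-Seq was performed on 24 libraries of 3 triple-negative breast cancer (TNBC) cell lines, with 3 biological replicates for each of 8 conditions. Hs578T and HCC70 cells of wild-type genotype were sorted by FACS into breast cancer stem-like cells (BCSCs), gated as CD24-CD44+ and ALDH+, and non-BCSCs. MDA-MB-231 cells carried a control sgRNA (sgCtrl) or a lentiviral CRISPR guide against the mitotic kinesin KIF20A (KIF20A sg1), and in another experiment an empty vector (EV) or, by label, KIF20A overexpression (KIF20A OE). Puromycin was used to select infected cells, and no clone was named. Each experiment had a batch label and a table of its own, so lines and experiments cannot be told apart from batches, and every test was made within 1 table.

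Eukaryotic protein synthesis starts when eIF2 brings the initiator tRNA to the small ribosomal subunit, with eIF1, eIF1A, eIF3 and eIF5 in the same complex, and eIF2B recharges eIF2 with GTP. The cap-binding protein eIF4E, the scaffold eIF4G and the helicase eIF4A recruit the mRNA, a step that 4E-BPs block by holding eIF4E. In elongation eEF1A delivers aminoacyl-tRNA and eEF2 moves the ribosome along; EEF2K inhibits eEF2, and kinases of eIF2 such as PERK (EIF2AK3) and GCN2 (EIF2AK4) lower initiation under stress.

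Whole reads recovered from the deposited values numbered 28402681 to 33973164 per Hs578T library, 24983606 to 33985436 per HCC70 library, 41424338 to 51018667 per library of the depletion and 15971297 to 22182293 per library of the overexpression. KIF20A, the targeted gene, was at 153, 173 and 156 CPM, as the authors named the values of that table, with sgCtrl and at 122, 145 and 91.1 CPM with KIF20A sg1 (log2 -0.45 ± 0.16 SE, adjusted p = 0.69 by limma with Benjamini-Hochberg). With EV it was at 101, 143 and 124 CPM, and the libraries labelled KIF20A OE held 1348, 269 and 896 CPM. The latter stood apart in more than KIF20A: CD44, a surface marker of MDA-MB-231 cells, was at 788, 615 and 523 CPM with EV and at 0.125, 0.316 and 1.23 CPM in them. IRS4 was at 0 in every EV library and at 1219 to 1750.4 CPM in them, and 5 of 6 kidney development and neurofilament genes, IRS4 included, were higher and 1 (PAX8) lower. LIN28B, NEFL and PAX2, among the 5, were also at 0 in every EV library. All 6 mesenchymal markers examined were lower, among them NT5E (from 1239 to 0.275 CPM) and AXL (from 962 to 0.771 CPM). These markers go against the labelled MDA-MB-231 line, and whether the libraries come from it was not tested. In the sorted lines G2/M genes moved with the sort. In Hs578T BCSCs 7 of 8 were higher (summed TPM 1353 to 1403 in non-BCSCs, 1700.1 to 1879.9 in BCSCs), against 2.9% of all genes. In HCC70 BCSCs 8 of 8 were higher (855 to 865 and 1368 to 1434), against 2.28% of all genes. Of the sorting markers ALDH1A3, CD44 and CD24 in Hs578T, ALDH1A3 alone was called (log2 1.29, adjusted p = 8.4e-06 by limma). In HCC70 0 of 4 sorting markers, these and ALDH1A1, were called.

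Levels can be compared between genes in the sorted lines, where TPM is corrected for length (plot of TPM levels). The translation factors together held 1.44% to 1.46% of all TPM in Hs578T non-BCSCs and 1.41% to 1.49% in its BCSCs; in HCC70 the shares were 0.892% to 0.961% and 0.953% to 0.980%. Among the listed members 31 of 62 averaged at least 100 TPM in Hs578T non-BCSCs and 31 of 61 did in HCC70 non-BCSCs. EEF2, the translocase, had the highest TPM of the member rows in Hs578T, with 1921, 1966 and 2038 TPM in the non-BCSC libraries and 2054, 2249 and 1940.3 TPM in the BCSC libraries. In HCC70 the helicase EIF4A1 ranked first, at 539.7 ± 39.6 TPM in non-BCSCs (SD, n = 3), although it overlaps the readthrough gene SENP3-EIF4A1, which had a row of its own. EEF2 ranked sixth there, at 398 ± 5.25 TPM, and did not differ beyond the spread from its neighbors EIF4A2 (411 ± 34.1 TPM) and EIF3H (393 ± 7.71 TPM). These ranks are of the rows as deposited. EEF1A1 can lose reads to its many pseudogenes, and whether it would otherwise rank first in either line was not tested.

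**Figure D1:**
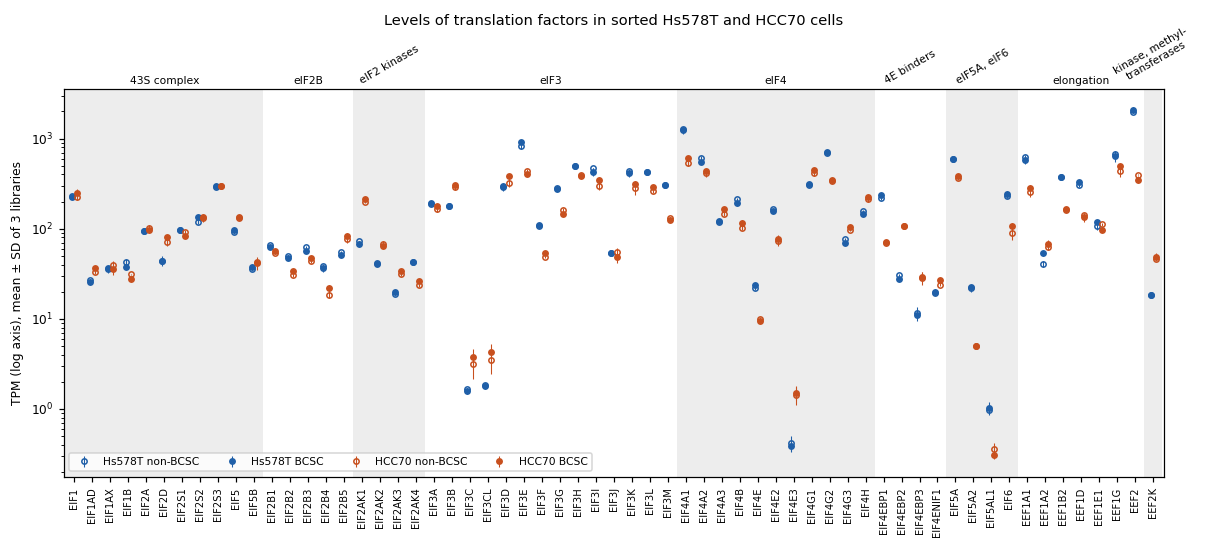
Mean TPM (log axis) of each translation factor by role; bars are the SD of 3 libraries, open points non-BCSCs and filled points BCSCs, blue Hs578T and orange HCC70. EIF4E1B is left out because its BCSC mean was 0; EEF2 is highest in Hs578T and EIF4A1 in HCC70, and EIF4E3 and EIF5AL1 are the lowest points of each line.

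Paralogs differed in how unequal they were. EIF4A2 made up 31.6% to 33.4% of the summed TPM of EIF4A1 and EIF4A2 in Hs578T non-BCSCs and 40.3% to 46.7% in those of HCC70. The overlapping readthrough gene SENP3-EIF4A1 averaged 602 and 267 TPM in these non-BCSCs, so the shares of this pair are uncertain. EEF1A1, the general aminoacyl-tRNA carrier, averaged 620.5 TPM in Hs578T non-BCSCs, and EEF1A2, its paralog of muscle and neurons that is also found in some tumors, 40.9 TPM. EEF1A2 made up 5.89% to 6.75% of the pair there and 18.6% to 20.5% in HCC70 non-BCSCs; reads of EEF1A1 can also fall on its many pseudogenes, so its level is uncertain. EIF4E was at 22.0 ± 0.976 TPM in Hs578T and 9.85 ± 0.745 TPM in HCC70 non-BCSCs (SD, n = 3), and its atypical paralog EIF4E3 at 0.414 ± 0.0847 and 1.44 ± 0.336 TPM. EIF4EBP1, which encodes the 4E-BP 4E-BP1, stood at 9.29 to 11.3 times the TPM of EIF4E in the Hs578T non-BCSC libraries and 6.46 to 8.08 times in those of HCC70. Of the 14 eIF3 rows, 12 lay between 53.6 (EIF3J) and 828 TPM (EIF3E) in Hs578T non-BCSCs, while the near-identical copies EIF3C and EIF3CL were at 1.65 and 1.87 TPM. Those copies held the same recovered reads as each other in every sorted library, 128 to 166 in Hs578T and 159 to 406 in HCC70, so both are uncertain.

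The promoters of 4 of these genes are shown because the log2 differences of EEF1A1 and EEF2, and of EIF4E and EIF4E3, were of unlike size in the overexpression experiment. EIF4E and EIF4E3 were both called higher there as deposited. The differences within each pair and any part of the promoters in them were not tested. Each run is the 250 bases before the RefSeq start (GRCh38.p14), 5′ to 3′ on the gene's strand, which is the minus strand for all 4. They are EEF1A1 at chr6:73521033-73521282, EEF2 at chr19:3985464-3985713, EIF4E at chr4:98929134-98929383 and EIF4E3 at chr3:71754774-71755023, the first of 3 starts in the table. Capitals mark TATAA, the core of a TATA box, in the first pair and the palindromic E-box CACGTG, bound by MYC and related factors, in the second.
EEF1A1: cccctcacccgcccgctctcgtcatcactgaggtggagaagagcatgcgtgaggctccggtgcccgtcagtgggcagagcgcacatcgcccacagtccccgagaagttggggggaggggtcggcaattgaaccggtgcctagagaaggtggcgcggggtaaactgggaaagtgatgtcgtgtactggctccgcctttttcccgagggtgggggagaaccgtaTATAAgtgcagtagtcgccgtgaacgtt
EEF2: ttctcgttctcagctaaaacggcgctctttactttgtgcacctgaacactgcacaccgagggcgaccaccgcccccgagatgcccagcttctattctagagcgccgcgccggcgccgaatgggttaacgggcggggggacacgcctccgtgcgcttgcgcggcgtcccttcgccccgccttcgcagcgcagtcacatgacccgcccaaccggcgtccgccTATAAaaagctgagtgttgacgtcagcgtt
EIF4E: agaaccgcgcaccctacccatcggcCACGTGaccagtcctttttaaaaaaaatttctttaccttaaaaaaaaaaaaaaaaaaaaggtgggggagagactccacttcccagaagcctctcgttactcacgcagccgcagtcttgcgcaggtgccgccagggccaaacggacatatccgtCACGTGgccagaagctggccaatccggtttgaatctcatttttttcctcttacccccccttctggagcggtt
EIF4E3: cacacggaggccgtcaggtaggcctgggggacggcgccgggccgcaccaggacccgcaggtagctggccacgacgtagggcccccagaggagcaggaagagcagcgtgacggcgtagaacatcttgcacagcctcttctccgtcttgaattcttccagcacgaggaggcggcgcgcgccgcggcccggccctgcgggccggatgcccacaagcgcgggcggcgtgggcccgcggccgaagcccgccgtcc

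TATAA began 28 bases before the start of EEF1A1 and 30 before that of EEF2. Searched on the gene's strand from 40 to 20 bases before the first start, it stood in 6 of the 55 members with a promoter in the table (EEF1A1, EEF2, EIF1, EIF4A1, EIF4A2 and EIF4B) and in 4.07% of all 27305 genes. CACGTG, which reads the same on both strands, stood in the 250 bases of 14 of the 55 members and of 6.49% of all genes; EIF4E holds it at 225 and 72 bases before the start, and EIF4E3 does not hold it in this window. These are matches of letters, and no binding was measured.

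In Hs578T the comparison of BCSCs with non-BCSCs asked which genes differ in the stem-like cells. EEF1A2 (chr20:63488013-63499239, minus strand, GRCh38) was the 1 member called by limma as deposited. It was at 38.5, 39.8 and 44.4 TPM in the non-BCSC libraries and at 51.2, 57.1 and 50.9 TPM in the BCSC libraries. All BCSC libraries lay above all non-BCSC libraries, a 1.29-fold rise (log2 0.37 ± 0.069 SE, adjusted p = 0.0204 by limma with Benjamini-Hochberg) on 901 to 1511 reads. Of 60 members 1 was higher and 0 were lower, where 2.9% and 4.26% of the 13324 genes tested were (7.15% in either direction). An unadjusted p under 0.05 was met by 7 of 60, against 22.5% of all genes. On the recovered reads edgeR and DESeq2 each called 3 members higher (EEF1A2, EIF2S2 and EIF3E) and 2 lower (EIF4A2 and EIF4G3). Of all 13324 genes edgeR called 810 higher and 834 lower, and DESeq2 737 and 685. The call of EEF1A2 was lost without non-BCSC replicate 1, non-BCSC replicate 2 or BCSC replicate 1, with adjusted p from 0.057 to 0.0896 by limma. EEF1A1 was at 615, 633 and 613 TPM against 593, 514 and 644 TPM in BCSCs, so its groups overlapped (95% interval of the log2 difference -0.28 to 0.088). Bulk values cannot tell more cells that express EEF1A2 from more EEF1A2 RNA per cell, and the part of the G2/M genes in the result was not tested.

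The other 59 members tested in Hs578T gave log2 differences from -0.20 to 0.17, and the median over all 60 was -0.0054, against -0.013 over all genes. Of the 60, 26 were above 0 as deposited and 35 after the libraries were rescaled by the median of ratios, with a median of 0.022. Groups did not overlap for 15 of 60 members, against 29.0% of all genes. At the small subunit, EIF1B, a close copy of the start-codon factor EIF1, was at 45.7, 42.8 and 40.8 TPM in non-BCSCs and at 37.8, 37.5 and 36.6 TPM in BCSCs (adjusted p = 0.061 by limma). EIF2S2, the beta subunit of eIF2, was at 119.6 ± 6.05 against 134 ± 1.92 TPM (SD, n = 3, adjusted p = 0.089), and the alpha subunit EIF2S1 at 96.9 ± 4.97 against 96.5 ± 2.67 TPM. All 5 eIF2B subunits gave differences below 0, from -0.15 (EIF2B3, adjusted p = 0.092) to -0.056, and 0 of the 5 passed. Over all 13324 genes 7270 differences were below 0. EIF1B, EIF2S2, EIF2B3 and EIF3E are named after their values were seen.

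The 10 tested members of the eIF4 list (cap-binding, helicase and scaffold genes) lay between -0.16 and 0.093 in log2. EIF4A2, the paralog of EIF4A1, was at 644, 608 and 585 TPM in non-BCSCs and 545, 535 and 564 TPM with BCSCs, without overlap (log2 -0.16 ± 0.050 SE, adjusted p = 0.104). The scaffold EIF4G1 was at 307 ± 7.72 against 311 ± 6.27 TPM, and its paralog EIF4G3 at 76.9 ± 2.58 against 69.2 ± 2.74 TPM (SD, n = 3, adjusted p = 0.12 for EIF4G3 by limma). EIF4E gave a log2 difference of 0.093 (95% interval -0.024 to 0.21) and EIF4EBP1 of 0.10 (95% interval -0.022 to 0.23). For EIF5A, which helps ribosomes over polyproline stretches, the difference was -0.018.

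**Figure D2:**
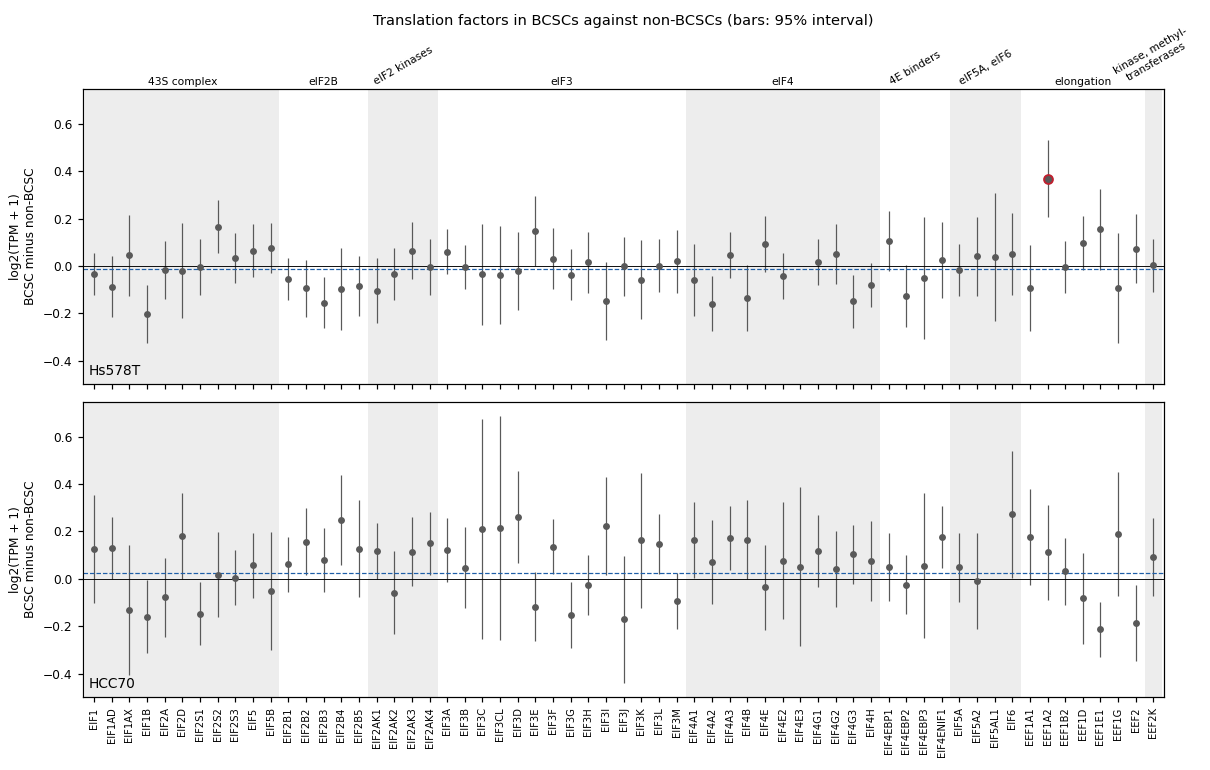
Log2(TPM + 1) of BCSCs minus non-BCSCs for each tested translation factor in Hs578T and HCC70; points are fitted differences, bars 95% intervals, the dashed blue line the median of all genes tested, and red marks the single call. EEF1A2 in Hs578T, at 0.37, is the member farthest from 0 in either line.

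In HCC70 no member passed the test in the same comparison. Of 60 members 0 were higher and 0 lower, against 2.28% and 0.552% of the 13218 genes tested (2.83% in either direction), and 16 had an unadjusted p under 0.05, against 23.7% of all genes. Of the differences 43 of 60 were above 0 (7403 of the 13218 genes), with a median of 0.076 against 0.024 for all genes. After rescaling 41 were above 0. Groups did not overlap for 21 members, against 30.9% of all genes. The 95% intervals of the members stayed within -0.44 and 0.69 in log2. EEF1E1, a scaffold protein of the multisynthetase complex, was lowest at -0.21, with 115, 108 and 111 TPM in non-BCSCs and 98.6, 94.9 and 94.96 TPM for BCSCs, without overlap (adjusted p = 0.066 by limma). DESeq2 called it and EIF2S1 lower, where 541 of all 13218 genes were, and edgeR called it alone, where 270 were. Of the annotated exon bases of EEF1E1, 18.8% are shared with the readthrough gene EEF1E1-BLOC1S5. A readthrough row named EEF1E1-MUTED gave a log2 difference of -0.11 in HCC70 (adjusted p = 0.26 by limma).

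By role in HCC70, all 5 eIF2B subunits, 10 of 11 members of the eIF4 list and 9 of 14 eIF3 rows gave differences above 0. So did 6 of 11 genes of start site selection and 4 of 7 elongation genes, and 7403 of all 13218 genes. EIF2B4 was at 16.8, 19.9 and 19.1 TPM in non-BCSCs against 20.9, 21.9 and 23.8 TPM, and EIF3D, a cap-contacting eIF3 subunit, at 324 ± 32.5 against 387 ± 21.8 TPM (SD, n = 3, adjusted p = 0.13 and 0.12 by limma). EEF1E1, EIF2B4 and EIF3D are named after their values were seen. The largest difference, 0.27, was that of EIF6, the factor that keeps the ribosomal subunits apart, with 73.8, 103 and 94.9 TPM in non-BCSCs and 104, 116 and 105 TPM with BCSCs (adjusted p = 0.204). Its groups came close without overlap, and non-BCSC replicate 1 was the low library. EEF2 was at 396, 404 and 395 TPM and in BCSCs at 351, 380.3 and 321 TPM (log2 -0.19, adjusted p = 0.16). EEF1A2, the gene called in Hs578T, was at 57.5, 66.4 and 62.8 TPM and in BCSCs at 66.0, 75.0 and 61.4 TPM, with overlap (log2 0.11, 95% interval -0.088 to 0.31). That interval overlaps the one in Hs578T (0.21 to 0.53), and the difference between the lines was not tested.

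Both lines tested 59 members, each in its own fit. For 15 of them the difference was above 0 in both, for 7 below 0 in both, for 10 above 0 in Hs578T alone and for 27 above 0 in HCC70 alone. These tallies depended on the scaling, and after the median of ratios they were 19, 4, 15 and 21. EIF1B was separated in the same direction in both lines, -0.20 in Hs578T and -0.16 in HCC70 (adjusted p = 0.061 and 0.19 by limma), and was called in neither. Of 41 tested genes of a wider list of translation regulators, termination and recycling factors, 0 were higher and 2 lower in Hs578T BCSCs. Of all genes 2.9% were higher and 4.26% lower there. DDIT4, an inhibitor of mTOR signaling, fell from 71.2 ± 1.98 to 52.9 ± 3.22 TPM, and PPP1R15A, the stress-induced subunit of an eIF2 phosphatase, from 81.8 ± 0.813 to 70.7 ± 2.39 TPM (SD, n = 3, adjusted p = 0.0048 and 0.028 by limma). In HCC70 BCSCs 4 of the list were higher and 0 lower, against 2.28% and 0.552% of all genes. DDIT4 rose from 70.1 ± 5.34 to 94.2 ± 7.78 TPM, and MTOR, DDIT3 and SESN2 rose by 0.25, 0.47 and 0.49 in log2 (adjusted p from 0.0059 to 0.047 by limma). As deposited DDIT4 passed in both lines with opposite signs, a difference that was not tested. After rescaling 1 of the list was higher and 2 lower in Hs578T, where 620 and 573 of all 13324 genes were. In HCC70 2 were then higher and 0 lower, where 166 and 66 of all 13218 genes were. DDIT4 had an adjusted p of 0.0701 and MTOR of 0.072 in HCC70 by limma after rescaling.

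KIF20A depletion asked which genes respond to loss of the kinesin, and no member passed the test. Of 64 members 0 were higher (0.0% of all 12852 genes tested) and 0 lower (0.0%; 0.0% in either direction) by limma; edgeR called 0 members, and DESeq2 called 0 members with 3 genes higher and 13 lower in all. An unadjusted p under 0.05 was met by 5 of 64, against 7.0% of all genes, and groups did not overlap for 11, against 13.0%. The median log2 difference was 0.0089, against 0.0023 for all genes. Intervals were wide, with a median half-width of 0.30 in log2 against 0.12 in Hs578T and 0.16 in HCC70.

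The 5 members with an unadjusted p under 0.05 were EIF4EBP1, EIF6, EIF3G, EIF5A and EIF5A2 (plot of values by library). EIF4EBP1 was at 68.2, 88.2 and 50.3 CPM with sgCtrl and at 42.9, 37.2 and 54.3 CPM with KIF20A sg1. Its groups overlapped through replicate 3 of each (log2 -0.59 ± 0.20 SE, adjusted p = 0.69). EIF6 was at 179, 193 and 134 CPM against 129, 123 and 127 CPM (log2 -0.40, adjusted p = 0.69), again with replicate 3 as the lowest sgCtrl library. The same held for EIF3G, an eIF3 subunit named after its values were seen, at 110.1, 105 and 80.0 CPM against 76.8, 74.4 and 74.7 CPM. The eIF5A paralogs lay on opposite sides, EIF5A at 329, 303 and 299 CPM with sgCtrl and 258, 267 and 242 CPM with KIF20A sg1, and EIF5A2 at 44.5, 44.1 and 55.1 CPM against 57.2, 58.6 and 60.6 CPM. Groups overlapped for neither paralog, and neither was called (adjusted p = 0.69 and 0.69).

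**Figure D3:**
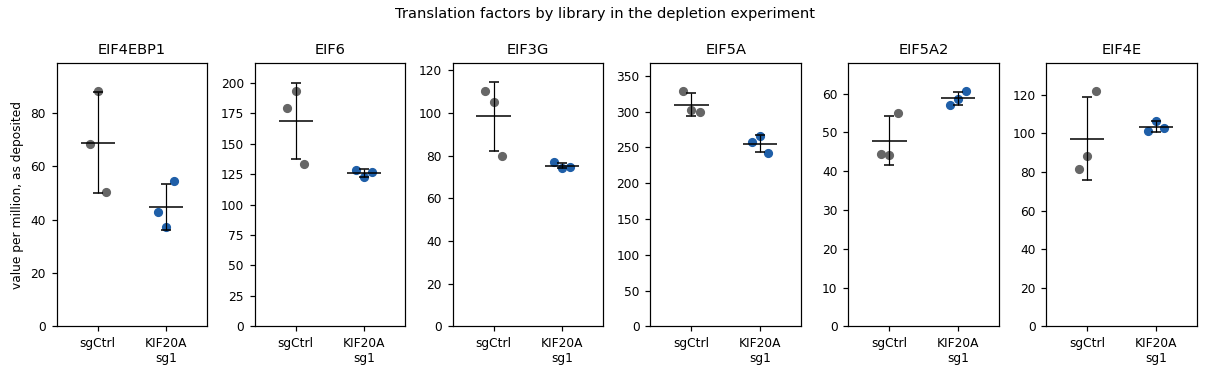
CPM as deposited in each library of the depletion experiment for the 5 members with an unadjusted p under 0.05 and for EIF4E; points are libraries, lines the mean and SD of 3, and each axis starts at 0. The sgCtrl libraries spread more than the KIF20A sg1 libraries for each of the 6 genes.

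The sgCtrl libraries differed among themselves. Over the tested members sgCtrl replicate 3 had a median log2 difference of 0.17 from the other sgCtrl libraries and sgCtrl replicate 1 of -0.16, whereas the KIF20A sg1 libraries were within -0.058 and 0.042. Without sgCtrl replicate 3, EIF2A, an alternative initiator tRNA carrier, was called higher and EIF3G and EIF6 lower, among 7 genes higher and 137 lower in all. With all 6 libraries EIF2A, named after its values were seen, was at 82.8, 89.8 and 140.3 CPM against 120.1, 131 and 122 CPM. Of the central factors EIF4E was at 97.4 ± 21.5 against 104 ± 2.70 CPM, EIF2S1 at 188 ± 27.9 against 196 ± 12.8 CPM and EEF2 at 1682 ± 153 against 1492 ± 65.9 CPM (SD, n = 3). In the wider list 0 of 41 genes were called by limma, against 0.0% of all genes, and 1 had an unadjusted p under 0.05, against 7.0%. EEF1G was listed at 0 in every library of this table and EIF4A1 at 1.42 to 8.80 CPM; 99.7% and 47.4% of their annotated exon bases are also exons of other genes on the same strand, so neither value is taken as a level.

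With the libraries labelled KIF20A OE compared with EV, 32 of 64 members were higher and 5 lower, where 46.2% and 23.4% of the 15265 genes tested were (69.7% in either direction). Their median log2 difference was 0.36 against 0.37 for all genes, and groups did not overlap for 43 members, against 74.1% of all genes; an unadjusted p under 0.05 was met by 42, against 72.2%. Once libraries were rescaled to a common median ratio (the median of ratios), that of all genes moved to 0.038, and 17 members were higher and 16 lower, against 34.2% and 32.5% of all genes. All 17 were among the 32, and the 5 remained lower, so the balance of directions depended on the scaling. Because the libraries labelled KIF20A OE differ from EV in the markers of the line itself, the overexpression and a difference of cells cannot be told apart in any value that follows.

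**Figure D4:**
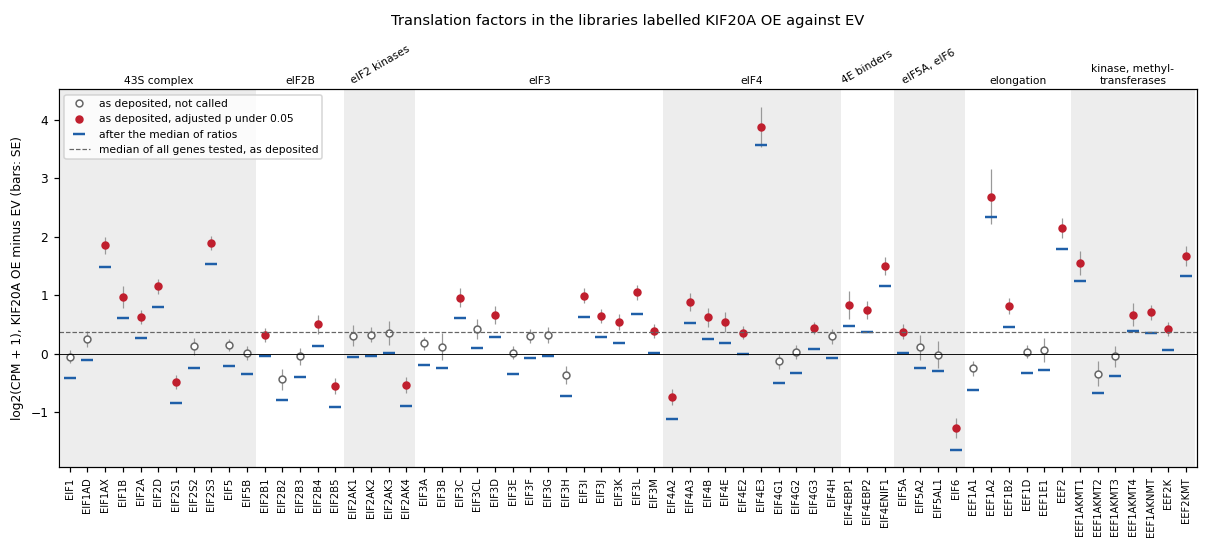
Log2(CPM + 1) of the libraries labelled KIF20A OE minus EV for the 64 tested translation factors; points are differences as deposited with their SE (red where adjusted p was under 0.05, open where not), blue dashes the same after the median of ratios, and the dashed gray line the median of all genes. EIF4E3, EEF1A2 and EEF2 stand highest and EIF6 lowest on both scales.

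In elongation EEF2 (chr19:3976056-3985463) rose from 1142, 1128 and 876 CPM with EV to 5157, 3758 and 5102 CPM. Every library labelled KIF20A OE lay above every EV library (log2 2.15 ± 0.18 SE, adjusted p = 1.48e-05 by limma with Benjamini-Hochberg, then log2 1.78 after rescaling). EEF1A1 (chr6:73489308-73525587), which like EEF2 holds TATAA in the promoter printed above, was at 4384, 4225 and 4012 CPM with EV and at 3776, 3179.7 and 3650.4 CPM in the group labelled KIF20A OE (log2 -0.25, adjusted p = 0.12, then log2 -0.62 and adjusted p = 0.0072 after rescaling). EEF1A2 rose from 21.9, 9.13 and 4.70 CPM, EV libraries that themselves spread widely, to 79.0, 48.1 and 88.8 CPM (log2 2.69 ± 0.47 SE, adjusted p = 0.0011, then log2 2.34 after rescaling). Of the 7 kinase and methyltransferase genes that modify these proteins, 5 were higher and 0 lower as deposited, against 46.2% and 23.4% of all genes. After rescaling 3 were higher and 1 lower, against 34.2% and 32.5% of all genes. The 1 lower was EEF1AKMT2, named after its values were seen, at 9.75 ± 0.329 against 7.67 ± 2.25 CPM (log2 -0.34 as deposited, -0.67 and adjusted p = 0.024 after rescaling). EEF2KMT, which methylates eEF2, went from 8.32 ± 0.637 to 28.9 ± 4.48 CPM, and EEF1AKMT1, which methylates eEF1A, from 2.65 ± 0.403 to 9.79 ± 1.99 CPM (SD, n = 3, adjusted p = 5.91e-05 and 0.00024 by limma). The inhibitory kinase EEF2K rose by 0.42 in log2 as deposited (adjusted p = 0.011), and after rescaling its difference was 0.061 (adjusted p = 0.66).

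**Figure D5:**
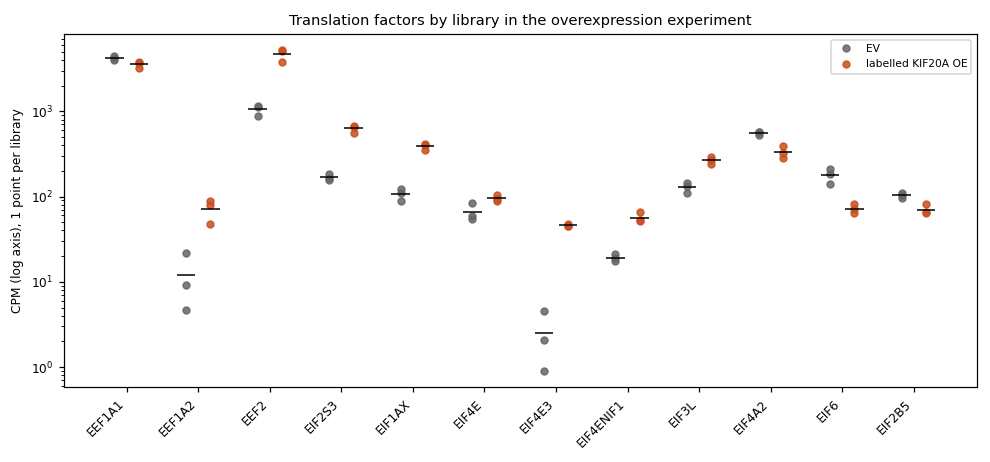
CPM (log axis) of 12 translation factors in each library of the overexpression experiment; points are libraries of EV and those labelled KIF20A OE, and lines the mean of 3. EEF2, EIF2S3, EIF1AX and EIF4E3 are separated by several fold, EEF1A1 by little, and EIF4A2, EIF6 and EIF2B5 lie lower in the latter.

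On the initiation side EIF4E3 (chr3:71675414-71754773) had the largest rise of the 64 members, from 0.905, 2.08 and 4.53 CPM with EV to 45.3, 47.8 and 44.7 CPM, with 19 reads in the lowest library (log2 3.88 ± 0.35 SE, adjusted p = 2.58e-05, then log2 3.58 after rescaling). EIF4E (chr4:98879276-98929133) was at 54.9, 59.7 and 83.7 CPM with EV and 93.7, 103 and 89.1 CPM in the group labelled KIF20A OE. It was called as deposited (log2 0.54, adjusted p = 0.0199) but not after rescaling (0.18, adjusted p = 0.33), and the call was lost without EV replicate 1, EV replicate 2, KIF20A OE replicate 1 or KIF20A OE replicate 2 (adjusted p from 0.053 to 0.069). Of the eIF4E binders, the transport protein EIF4ENIF1 rose from 19.2 ± 1.95 to 56.7 ± 7.78 CPM (SD, n = 3, adjusted p = 5.12e-05 by limma), and EIF4EBP1 and EIF4EBP2 rose by 0.83 and 0.74 in log2 as deposited (adjusted p = 0.013 and 0.00303). After rescaling EIF4EBP2 remained higher (0.38, adjusted p = 0.042) and EIF4EBP1 did not pass (0.46, adjusted p = 0.12), nor did it as deposited without KIF20A OE replicate 2 or 3 (adjusted p from 0.053 to 0.057). The helicase EIF4A2 fell from 563, 532 and 572 CPM to 393, 281 and 327 CPM (log2 -0.75 ± 0.14 SE, adjusted p = 0.0015, then log2 -1.11 after rescaling). EIF4G1 was at 897 ± 50.5 against 822 ± 101 CPM (SD, n = 3, log2 -0.13, adjusted p = 0.38, then log2 -0.50 and adjusted p = 0.012 after rescaling), and EIF4G3 rose by 0.44 as deposited (adjusted p = 0.0054, then log2 0.073 after rescaling).

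At the small subunit EIF2S3, the gamma subunit of eIF2 (chrX:24054946-24078810), rose from 164, 182 and 158 CPM with EV to 559.5, 655 and 679.6 CPM (log2 1.90 ± 0.12 SE, adjusted p = 3.36e-06, then log2 1.53 after rescaling). EIF1AX (chrX:20124525-20141838), the scanning factor eIF1A and like EIF2S3 a gene of the X chromosome, rose from 88.2, 111 and 122 CPM to 349.5, 409.8 and 402 CPM (log2 1.85 ± 0.14 SE, adjusted p = 1.09e-05, then log2 1.49 after rescaling). Neither gene had overlapping groups. EIF2S1, the alpha subunit that stress kinases phosphorylate, fell from 163, 195 and 163 CPM to 114, 126 and 130.5 CPM (log2 -0.49, adjusted p = 0.0067, then log2 -0.85 after rescaling). EIF2D, a noncanonical tRNA carrier, rose from 32.0 ± 0.980 to 72.5 ± 8.46 CPM (SD, n = 3, adjusted p = 9.64e-05 by limma). The catalytic eIF2B subunit EIF2B5 and the kinase EIF2AK4 fell by 0.56 and 0.54 in log2 (adjusted p = 0.0059 and 0.0094), while EIF2AK3 was at 15.9 ± 4.39 against 20.1 ± 0.846 CPM (adjusted p = 0.16, and 0.042 without EV replicate 1). EIF6 had the largest fall, from 185, 211 and 139 CPM to 64.4, 80.9 and 71.4 CPM (log2 -1.28 ± 0.17 SE, adjusted p = 0.00024, then log2 -1.64 after rescaling).

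For eIF3, 7 of 14 rows were higher and 0 lower as deposited, and 3 higher and 2 lower after rescaling, where 46.2% and 23.4%, and then 34.2% and 32.5%, of all genes were. EIF3L, a peripheral subunit, rose from 134, 144 and 109 CPM to 267, 289.5 and 243 CPM (log2 1.05 ± 0.13 SE, adjusted p = 0.00019, then log2 0.68 after rescaling), although 41.1% of its annotated exon bases overlap another gene on the same strand. EIF3A, the large core subunit, was at 646 ± 49.5 against 729 ± 48.8 CPM (SD, n = 3, adjusted p = 0.203 by limma). EIF5A rose by 0.38 in log2 as deposited (adjusted p = 0.035) and its difference was 0.012 after rescaling (adjusted p = 0.94). Its call was also lost without EV replicate 1 or 3 or KIF20A OE replicate 2 or 3 (adjusted p from 0.0601 to 0.12). EIF5A2 was at 16.0 ± 2.01 against 17.6 ± 4.58 CPM. Of the wider list 24 of 41 genes were higher and 9 lower as deposited, against 46.2% and 23.4% of all genes, and 15 higher and 15 lower after rescaling, against 34.2% and 32.5%. EV and sgCtrl are both MDA-MB-231 controls, but their tables were made apart and were not compared.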

How the data were processed

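Paired-end libraries were made from poly-A RNA with a stranded kit. The submitters' processing notes name HISAT2 2.0.5, featureCounts 1.5.0-p3 and GRCh38, and the study's methods name DESeq2; the annotation version is not given in the sources used here. The authors deposited TPM for Hs578T and HCC70, and CPM for the overexpression. The depletion values were deposited under the name CPM but their totals varied between libraries, so they were treated as a signal scaled by the authors.

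Each comparison was fitted by limma 3.58.1 (R 4.3.3) with trend on log2(value + 1), over all genes with a mean of at least 1 in its 6 libraries, with Benjamini-Hochberg adjustment and a threshold of 0.05. A fold change on this scale understates the change of low genes. Counts recovered from the deposited values were tested with edgeR 4.0.16 and DESeq2 1.42.0 as alternatives; recovered reads were whole within 0.02. The labels call the libraries biological replicates without naming separate cultures, so p-values measure only the spread between these samples. Named were 14 central factors, members called in Hs578T, HCC70 or the depletion, in the overexpression the 10 largest separated rises and falls among called members, and paralogs of these; others are said to be named after their values were seen. Members and lists were chosen with earlier results of these data known. On simulated data with 200 changed genes the fit recovered 166 (Hs578T), 158 (HCC70), 184 (depletion) and 165 (overexpression). Of its calls 8.29%, 8.67%, 3.16% and 4.07% were unchanged genes, which in the sorted lines is above the threshold. The simulation gave every gene the same dispersion and placed changes only in genes above a floor of reads. It also changed far fewer genes than were called in the overexpression. These counts therefore do not measure the power of the tests on the real libraries. Promoters came from a RefSeq table of GRCh38.p14, which matched 55 of 70 members, and locations from GENCODE release 44. The level of the Y-linked EIF1AY is not given.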

Additional observations from a re-analysis of the deposited data

Results flagged for a closer look

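EIF2B1, the alpha subunit of eIF2B, had groups without overlap in both sorted lines and in opposite directions: the log2 difference of BCSCs from non-BCSCs was -0.056 in Hs578T and 0.061 in HCC70. It was called in neither line (adjusted p = 0.44 and 0.50 by limma), and the difference between the lines was not tested. Groups did not overlap for 29.0% of all genes in Hs578T and 30.9% in HCC70.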

How the results depend on the processing

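In Hs578T 2 members were called higher after the median of ratios and 3 by edgeR and by DESeq2, which each called 2 lower. In HCC70 1 was lower after the median of ratios and by edgeR, and 2 by DESeq2. In the overexpression the median of ratios gave 17 higher, 16 lower and a median of 0.0029, edgeR 17, 15 and 0.0021, and DESeq2 18, 16 and 0.0016. Of all 15265 genes 5218 were higher and 4968 lower after the median of ratios, 5099 and 4832 by edgeR, and 5230 and 4955 by DESeq2. Over fits leaving out 1 library, calls of members in Hs578T ranged from 0 to 1 higher and 0 to 1 lower (144 to 396 and 198 to 497 of all 13324 genes). The count higher was 0 without non-BCSC replicate 1, non-BCSC replicate 2 or BCSC replicate 1, and EIF1B was the 1 lower without non-BCSC replicate 3. In the depletion the calls ranged from 0 to 1 higher and 0 to 2 lower. They were 1 and 2 without sgCtrl replicate 3, where 7 and 137 of all 12852 genes were called. In the overexpression the calls ranged from 27 to 32 higher and 5 to 7 lower (6475 to 6920 and 3225 to 3412 of all 15265 genes). The median of the members in HCC70 ranged from 0.060 to 0.11, the latter without non-BCSC replicate 3. The causes were not tested. No member was called in opposite directions by an alternative and by the fit as deposited, but in the overexpression the called rise of EIF2B1 (0.32) became -0.041 and that of EIF4E2 (0.36) -0.00075, neither called, after the median of ratios. In Hs578T the members had a median, with no test, of -0.0054 as deposited, 0.022 after the median of ratios and 0.016 by edgeR and by DESeq2. Over all genes Hs578T had 386 higher and 567 lower, 620 and 573 after the median of ratios, 810 and 834 by edgeR and 737 and 685 by DESeq2; HCC70 had 301 and 73, 166 and 66, 407 and 270, and 649 and 541 in the same order. Same-numbered libraries deviated together with correlations from -0.16 to 0.19, which cannot decide whether the numbers pair the samples. In the overexpression the correlations were 0.036, 0.058 and 0.014, and all 3 EV libraries matched the library of their own number best. With the replicate block the calls of members were 1 and 0, 0 and 0, 0 and 0, and 32 and 5 in the 4 comparisons. Of the last, 31 and 5 were shared with the fit without the block. Over all genes the calls with the block were 288 and 381, 94 and 34, 0 and 0, and 6989 and 3556.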
